A study of Arabidopsis thaliana with 6 samples.

Results

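The hypoxia response genes are a set of Arabidopsis loci known to be switched on when oxygen runs low, and 46 of them were listed for the comparison of frb1-1 with wild-type seedlings. The arrays were those of a study of cell adhesion, in which friable1 (frb1) seedlings lose cells and fuse organs. Whole Col-0 seedlings aged 10 days were raised on 0.5 MS at 21 °C in constant light of 200 µE, with 4 days of cold. They gave 3 wild-type (FRB1) arrays and 3 mutant arrays, which the labels call biological replicates. The frb1-1 allele has a T-DNA insertion upstream of At5g01100 and keeps a little FRB1 transcript. The annotation of the ATH1 array names a probe set (short oligonucleotides that together measure 1 transcript) for 22 of the 46 loci. Of these 22, 15 were tested, since their log2 signal averaged 6 or more over the 6 arrays (a signal of 64), and 7 were dimmer. The whole table holds 22746 probe sets beside the controls, of which 15218 were tested. No locus had more than 1 probe set, and no probe set of a member was shared with another gene.

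The list was drawn up around At4g10270, because its signal was lower in frb1-1 on these same arrays. Its values are therefore a description, without a test. The other loci stand on the list for what is known of them under low oxygen, but the list was made with results of these arrays in view. The question was whether the fall of At4g10270 was shared by the other genes of the response.

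When oxygen is scarce, mitochondria stop respiring and plant cells make ATP by glycolysis and fermentation. Transcription factors of the ERF-VII group drive this response. In air their first residues are oxidised by the plant cysteine oxidases (PCO) and the proteins are degraded by the N-degron pathway, and under low oxygen they persist. Their targets include pyruvate decarboxylase and alcohol dehydrogenase, sucrose synthases, a haemoglobin that scavenges nitric oxide, and genes that restrain the response itself, such as PCO1, PCO2 and HRA1. The seedlings of the arrays grew in air and were given no low-oxygen treatment.

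No other named gene of the response was called lower or higher in frb1-1, but few probe sets of the whole table were. With no filter on dim probe sets, 0 of the 21 named members other than At4g10270 passed in either direction. The threshold was 0.05 on the adjusted p from limma, which 0.0528% of all probe sets passed as lower and 0.154% as higher. At shares this small, a count of 0 says little about the members. At an unadjusted p under 0.05, 3 of the 21 were lower (At4g33560, HRA1 and At5g66985) and 2 higher (At4g39675 and At1g19530), 5 in all, beside 5.35% of all probe sets. By the ratio of mean signals 2 of the 21 were at least 2-fold lower, HRA1 and At4g33560, and 0 higher, beside 7.10% and 4.41%. The median log2 fold change of the 21, frb1-1 over wild type, was 0.07, and that of all probe sets -0.01.

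The minimum signal was set on the mean of all 6 arrays, frb1-1 included, so that a low signal in frb1-1 can itself take a member out of the tested set. HRA1 was taken out in this way, with a mean log2 signal of 6.60 in the wild type and 5.17 in frb1-1. At4g10270 stayed in through its wild-type arrays, with 8.30 and 5.95. The counts over the tested members below are therefore partly set by that minimum and give no support by themselves.

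Of the 14 tested members other than At4g10270, 0 passed the threshold on the adjusted p from limma as lower in frb1-1 and 0 as higher, where 0.0920% and 0.276% of all tested probe sets did. At an unadjusted p under 0.05, 1 member was lower and 2 were higher, 3 of 14, beside 5.96% of all tested probe sets. That count was 1 without wild-type replicate 1 (beside 5.19%) or frb1-1 replicate 2 (4.32%), 2 without frb1-1 replicate 1 (3.58%) or 3 (5.74%), and 5 of 15 without wild-type replicate 3 (7.61%). By the ratio of mean signals, 0 of the 14 differed at least 2-fold in either direction, beside 0.480% lower and 1.18% higher. The 14 log2 fold changes ran from -0.80 to 0.97 with a median of 0.14, and 11 were positive. Over all tested probe sets the median was 0.01, and 51.3% were positive. The median of the members was 0.03 without wild-type replicate 1, 0.23 without wild-type replicate 2 and 0.26 without wild-type replicate 3.

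At4g10270 belongs to a small family of wound-responsive proteins. Its signal was 209.8, 414 and 359 on wild-type replicates 1 to 3, and 68.9, 65.9 and 52.1 on frb1-1 replicates 1 to 3. Every frb1-1 array was below every wild-type array, and the frb1-1 signals lay around the minimum of 64. The mean signal was 328 ± 106 (SD, n = 3) for the wild type against 62.3 ± 8.98 (SD, n = 3) for the mutant. The log2 fold change of -2.35 ranked 9 from the lowest among all tested probe sets. With so little signal left in frb1-1 the fold is not exact, and it was -1.89 with a pseudocount of 32.

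**Figure D1:**
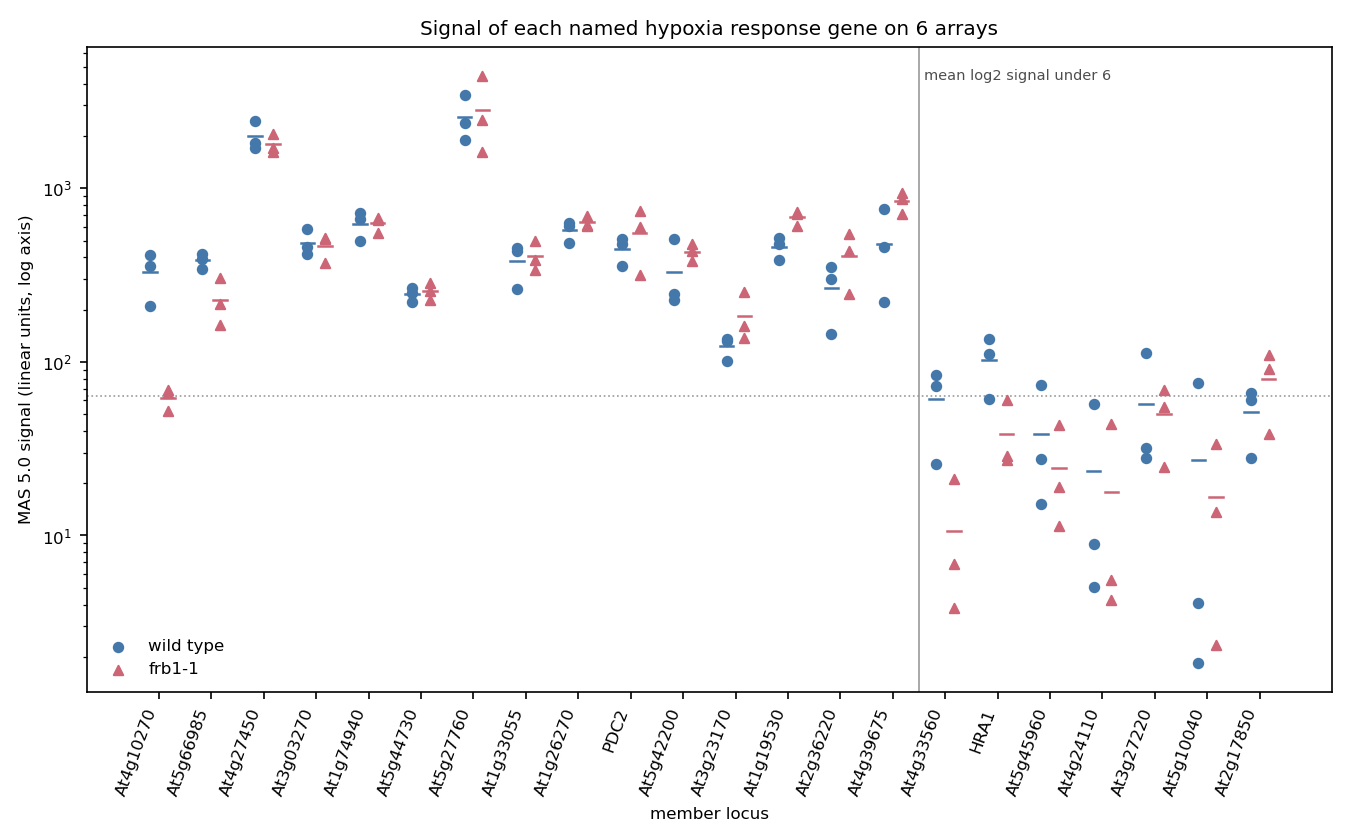
MAS 5.0 signal (log axis) of the 22 named members on each array, with circles for wild type, triangles for frb1-1, short lines for the mean of 3 arrays and a dotted line at a signal of 64. At4g10270 lies at 209.8 to 414 in the wild type and at 52.1 to 68.9 in frb1-1, whereas most tested members overlap between the genotypes. Levels of different genes cannot be compared, since probe sets differ in brightness.

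The 95% confidence intervals bound how much the 14 other tested members, which had passed the minimum signal, could have changed. For all 14 the interval from limma lay wholly above -2.35, the value of At4g10270, which chose the list and has an error of its own. For 13 of the 14 it also lay above -1, a fall of 2-fold, the exception being At5g66985. For 8 of the 14 it lay between -1 and 1. The lowest bound was -1.39 and the highest 1.79. Changes of more than 2-fold in some single members therefore remained within the error of 3 arrays of each genotype. With no filter, the limma intervals of the dim members HRA1 (-2.73 to -0.12) and At4g33560 (-4.69 to -0.76) held -2.35, as did those of some other dim members.

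**Figure D2:**
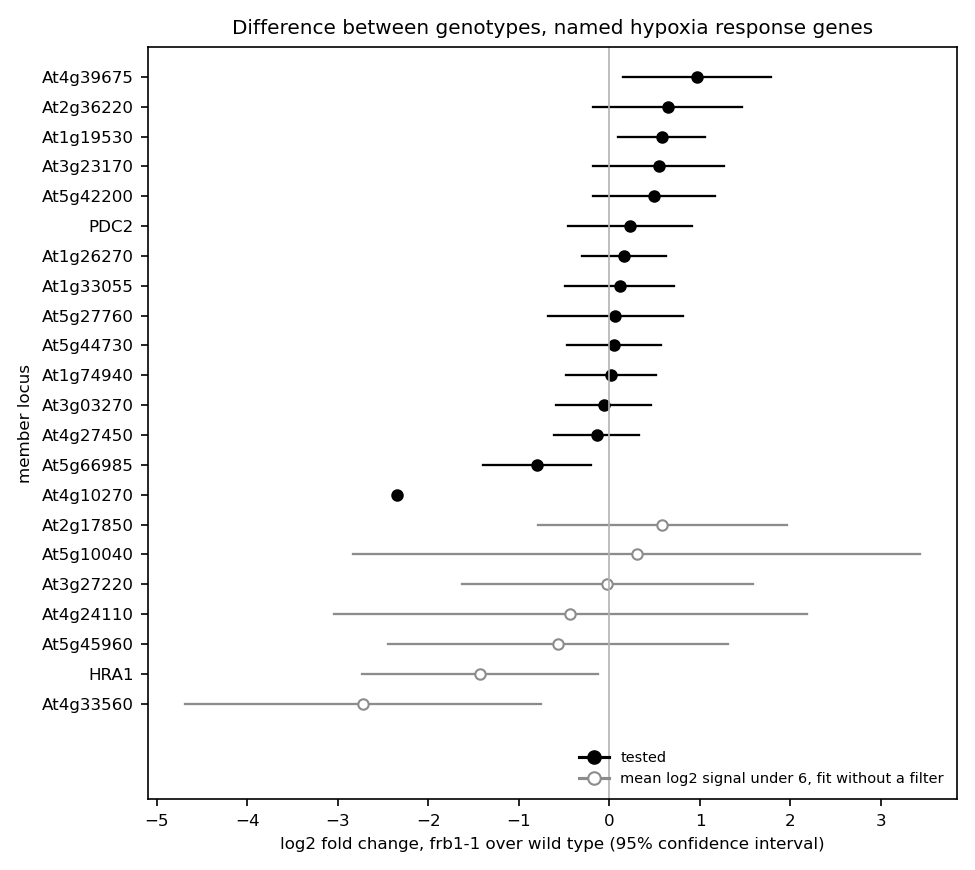
Log2 fold change of each named member, frb1-1 over wild type, as points with 95% confidence intervals from limma. Filled points are tested members, open points those with a mean log2 signal under 6, fitted with no filter, and At4g10270 is drawn without an interval because its value chose the list. At5g66985, at -0.80, is the only other tested member with an interval wholly below 0.

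The only fermentation enzyme of the hypoxia list with a named probe set was PDC2 (AT5G54960), a pyruvate decarboxylase, which takes the first step from pyruvate towards ethanol. Its signal was 359, 480 and 509 on wild-type replicates 1 to 3 and 744, 315 and 597 on frb1-1 replicates 1 to 3. The genotypes overlapped, with the highest and the lowest of the 6 values both in frb1-1. The difference came to 0.22 on the log2 scale (SE 0.31, interval -0.46 to 0.91, limma adjusted p = 1). A probe set shared by PDC3 and At5g01320, which stood on a list of other glycolytic and fermentative genes, had signals of 139 to 207 in the wild type and 178 to 248 in frb1-1, with a log2 fold change of 0.36 (limma adjusted p = 1). Of that list of 19 loci the annotation names 3 alone, the lactate dehydrogenase gene LDH, the glyceraldehyde-3-phosphate dehydrogenase gene GAPC2 and the triosephosphate isomerase gene TPI. None reached an unadjusted p under 0.05 in limma. Their log2 fold changes, all negative, ran from -0.25 for LDH (interval -0.80 to 0.30) to -0.11 for GAPC2.

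HRA1 (AT3G10040, HYPOXIA RESPONSE ATTENUATOR1) encodes a trihelix factor that restrains ERF-VII activity and was the only regulator of the response with a named probe set. It was dimmer than the minimum and was not among the tested members. Its signal was 135, 61.5 and 111 on wild-type replicates 1 to 3 and 28.6, 60.2 and 27.3 on frb1-1 replicates 1 to 3. The frb1-1 arrays were all below the wild-type arrays, but frb1-1 replicate 2 was close to wild-type replicate 2. With no filter, HRA1 differed by -1.43 on the log2 scale (SE 0.60, limma adjusted p = 0.875). Of 11 further loci of oxygen sensing, among them ERF-VII factors, other PCO genes and N-degron enzymes, the annotation names 0.

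At4g33560, of the same wound-responsive family as At4g10270, was also dimmer than the minimum. It had signals of 84.3, 72.4 and 26.0 in wild-type replicates 1 to 3 and of 3.81, 21.1 and 6.83 in frb1-1 replicates 1 to 3. All frb1-1 arrays were below all wild-type arrays, and 1 wild-type and 3 frb1-1 signals were under 64. With no filter its log2 fold change was -2.72 (SE 0.90, interval -4.69 to -0.76), and it did not pass the test (limma adjusted p = 0.602). The family members At4g05070 and At4g28240, which were not on the hypoxia list, had log2 fold changes of 0.48 and 0.16 (limma adjusted p = 1 for each). At4g05070 was at 2604 and 2716 on frb1-1 replicates 1 and 2 and at 948 on frb1-1 replicate 3, on either side of the wild-type range of 1233 to 1559. At4g10265, the gene next to At4g10270 in TAIR10.1 and of the same family, has no named probe set.

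Of the genes beside At4g10270, only At4g10280 and At4g10300 were tested. Neither was called lower, which says little, since only 0.0920% of all tested probe sets were. Of the 5 protein-coding genes on each side, the annotation names 4. At4g10280 had a log2 fold change of -0.16 (SE 0.23, interval -0.67 to 0.35) and At4g10300 one of -0.06 (SE 0.19, interval -0.47 to 0.36), with an adjusted p of 1 from limma for each. ATHSP22.0 and At4g10260 were under the minimum signal and their groups overlapped.

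Among the remaining tested members, At5g66985 had the lowest log2 fold change. Its signal was 345, 392 and 419 on wild-type replicates 1 to 3 and 163, 216 and 305 on frb1-1 replicates 1 to 3. Each frb1-1 array was below each wild-type array. The log2 fold change of -0.80 (SE 0.27) did not pass the test over all probe sets (limma adjusted p = 0.579).

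Below 0 there were also At4g27450 and At3g03270. At4g27450 had signals of 1712, 1821 and 2452 in the wild type and 2055, 1710 and 1627 in frb1-1, a log2 fold change of -0.14 (SE 0.21). At3g03270 had signals of 417, 456 and 586 in the wild type and 370.4, 511 and 519 in frb1-1, a log2 fold change of -0.06 (SE 0.24). At1g74940, with a log2 fold change of 0.02 (SE 0.23), had signals of 495 to 719 in the wild type and 553 to 675 in frb1-1. In these 3 genes the genotypes overlapped, and the difference was smaller than the spread within a genotype.

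With all 6 arrays, At4g39675 had the highest log2 fold change of the members, 0.97 (SE 0.37, limma adjusted p = 0.689). Its signal was 219.9, 761 and 460 on wild-type replicates 1 to 3 and 709.7, 871 and 938 on frb1-1 replicates 1 to 3. Wild-type replicate 2 lay among the frb1-1 arrays, so that the groups overlapped, and wild-type replicate 1 was the lowest. The log2 fold change was 0.50 without wild-type replicate 1 and 0.89 without frb1-1 replicate 3. In these fits At3g23170 (0.62) and At2g36220 (0.98), respectively, were higher.

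At1g19530 was at 386, 515 and 477 on wild-type replicates 1 to 3 and at 606, 728 and 711 on frb1-1 replicates 1 to 3. Here the genotypes did not overlap, and the log2 fold change was 0.58 (SE 0.22, limma adjusted p = 0.687). At3g23170, at 135, 101 and 132 in the wild type and 161, 254 and 137 in frb1-1, did not overlap either, but its lowest frb1-1 array was barely above its highest wild-type array. Its log2 fold change was 0.54 (SE 0.33, limma adjusted p = 0.996), and 0.29 without frb1-1 replicate 2. At2g36220 was at 145, 299.7 and 351 in the wild type and 547, 434 and 245 in frb1-1, with groups that overlapped and a log2 fold change of 0.65 (SE 0.38, limma adjusted p = 0.996). With 1 array left out At2g36220 ran from 0.26, without wild-type replicate 1, to 0.98, without frb1-1 replicate 3.

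The 5 other tested members, At5g42200, At1g26270, At1g33055, At5g27760 and At5g44730, had log2 fold changes of 0.05 to 0.49, and the genotypes overlapped in each. At5g44730 was the steadiest of the tested members, with signals of 222 to 265 in the wild type and 227 to 283 in frb1-1. At5g27760 spread more widely within each genotype, from 1894 to 3450 and from 1625 to 4417, than between them.

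Counting arrays that do not overlap gave 1 of the 14 other tested members lower in frb1-1 (At5g66985) and 2 higher (At1g19530 and At3g23170), beside 4.65% lower and 6.26% higher of all tested probe sets. With the dim members included, 3 of 21 were lower (At4g33560, HRA1 and At5g66985) and the same 2 higher, beside 5.02% lower and 5.24% higher of all probe sets with no filter. Under median scaling, with 14 members, 0 were lower and 1 was higher, beside 5.15% and 5.25%. With 1 array left out, fewer arrays are compared and a larger share of all tested probe sets did not overlap. Without frb1-1 replicate 1, 3 of 16 members were lower and 4 higher, beside 8.01% and 8.88% of all tested probe sets. Without wild-type replicate 2, 4 of 14 were higher, beside 12.3%, and without frb1-1 replicate 3, 2 of 15 were lower, beside 9.98%.

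The other dim members were At2g17850, At5g10040, At3g27220, At4g24110 and At5g45960. The genotypes overlapped in all 5. The signal of At5g10040 ran from 1.84 to 76.0 within the wild type alone. Of the 7 dim members 5 had a negative log2 fold change with no filter, and so had 57% of the 7528 dim probe sets of the table.

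**Figure D3:**
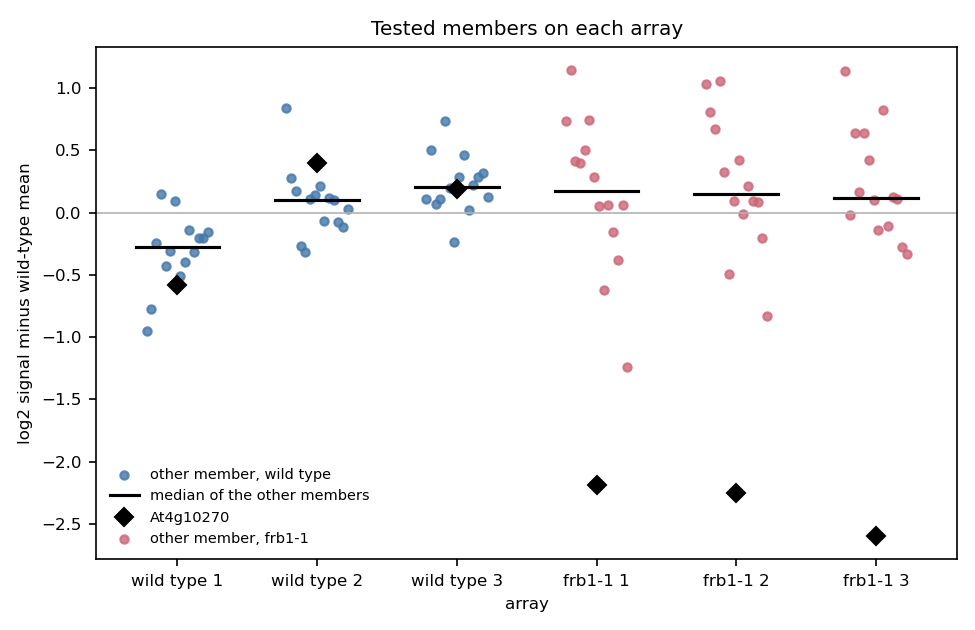
Log2 signal of each tested member minus its wild-type mean, on each array, with circles for the 14 other members, black lines for their median and diamonds for At4g10270. The medians lie between -0.27 and 0.21 on every array, whereas At4g10270 lies between -2.60 and -2.19 on the frb1-1 arrays.

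By the median of the 14 other tested members, wild-type replicate 1 stood apart and the other 5 arrays lay close together. Single members on the frb1-1 arrays ran from -1.24 to 1.14. The median deviation of log2 signal from the wild-type mean was -0.27, 0.11 and 0.21 on wild-type replicates 1 to 3 and 0.17, 0.15 and 0.12 on frb1-1 replicates 1 to 3. On wild-type replicate 1 only 2 of the 14 members were above their own mean over the 6 arrays, against 7 to 10 on the other arrays. Over all tested probe sets the median deviation ran from -0.05 to 0.07. At4g10270 was also lowest on replicate 1 among the wild-type arrays. The 7 dim members went otherwise, and by their median wild-type replicate 1 was their highest array. Their median deviation was 0.47, -0.19 and -0.78 on wild-type replicates 1 to 3 and -0.33, -0.69 and -0.90 on frb1-1 replicates 1 to 3. HRA1 and At4g33560 were each highest on wild-type replicate 1. That array was brighter at the low end of the whole table, not only in the members. There 73.5% of all probe sets reached a signal of 64, against 66.5% to 69.3% on the other arrays. The part of this in the values of the dim members was not tested.

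The members did not all move in the same direction across the arrays. Over the 91 pairs of the 14, the correlation of log2 signals across the 6 arrays had a median of 0.28, and 63 were above 0. It ran from -0.84 for At3g03270 with At1g26270 to 0.91 for At1g19530 with At4g39675. These correlations were not set beside those of other probe sets, so that the median cannot be called high or low. These points share their arrays and scaling, and 6 arrays of 2 genotypes give only a description. The median within-genotype SD of log2 signal was 0.35 for the 14 members and 0.33 for all tested probe sets.

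**Figure D4:**
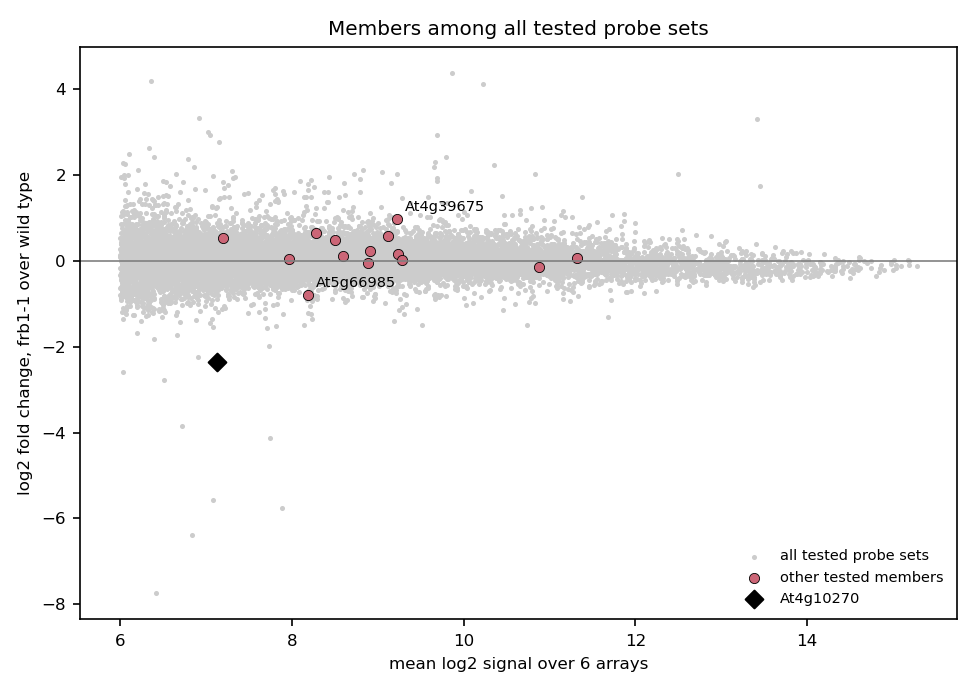
Log2 fold change, frb1-1 over wild type, against mean log2 signal over the 6 arrays for all 15218 tested probe sets (grey), with the 14 other tested members as circles and At4g10270 as a diamond. The 14 lie between -0.80 and 0.97 within the grey cloud, and At4g10270 at -2.35 is among the lowest points, with rank 9 from the lowest.

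The labelled tissue was checked with marker genes. Of 8 leaf and shoot markers the annotation names 3 (RCA, FAMA and GC1), all measured. Their summed signal was 30371 to 35039 in the wild type and 22554 to 27299 in frb1-1, without overlap. Of 10 root markers it names 2 (EXPA7 and PRX44), whose summed signal was 2019 to 3324 in the wild type and 2522 to 2851 in frb1-1. The leaf sum is mostly RCA, which by itself overlapped (22730 to 31295 in the wild type, 16255 to 23642 in frb1-1), as did GC1. The log2 fold changes of RCA, FAMA and GC1 were -0.41, -0.36 and -0.35. The arrays of FAMA did not overlap (114 to 144 in the wild type, 93.9 to 109 in frb1-1), and 4.65% of all tested probe sets were lower without overlap. None of the 5 marker genes passed the test (limma, 0 at an unadjusted p under 0.05, RCA at an unadjusted p of 0.0622). Fewer cells of a type and less RNA per cell cannot be told apart in whole seedlings, and the part of the leaf marker difference in the values of the members was not tested. Of 10 low energy and starvation genes the annotation names SEN5 and AKINBETA1, with log2 fold changes of -0.04 and 0.11 (limma adjusted p = 1 for each).

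PHI-1 (AT1G35140), which is on the hypoxia list, is named by a supplementary table of the study and not by the annotation, so that it was not counted. That table selected its genes on these arrays. PHI-1 had signals of 1436, 687 and 1155 on wild-type replicates 1 to 3 and 3698, 2378 and 1169 on frb1-1 replicates 1 to 3, so that the genotypes overlapped. Its log2 fold change was 1.06 (SE 0.39, limma adjusted p = 0.668), opposite in sign to that of At4g10270.

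For 24 of the 46 loci the annotation names no probe set, and 23 of these were not analysed here. They include the alcohol dehydrogenase gene ADH1, the pyruvate decarboxylase gene PDC1, the sucrose synthase genes SUS1 and SUS4, the oxygen sensors PCO1 and PCO2, the ERF-VII genes HRE1 and HRE2, the regulator LBD41 and the haemoglobin gene PGB1. The table holds 8730 probe sets without a gene name in the annotation, and these loci were not matched to any of them.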

How the data were processed

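RNA of whole seedlings was hybridized to 6 Affymetrix ATH1 arrays. The deposited table holds a linear signal intensity per probe set, which the authors computed in MAS 5.0 with a scaling target of 500. They then removed absent probe sets and used a spreadsheet. Detection calls were not used here. On log2 signals, without pseudocount, limma 3.58.1 in R 4.3.3 (lmFit, eBayes with a mean-variance trend) compared 3 arrays with 3, with Benjamini-Hochberg adjustment over the 15218 tested probe sets (64 controls left out). The script was tested on simulated data. The number of arrays limits the precision.

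Genes were matched by Entrez ID to locus tags (TAIR10.1). The annotation gives 1 gene to 13513 probe sets, several to 503 and none to 8730. FRB1 itself has no probe set named by it, and its signal was not used to check the labels. Members and lists were chosen with earlier results of these data known. Values are given for At4g10270, for members chosen by role, and for the 4 highest and 4 lowest of the others. At5g44730, At5g27760, At1g26270, the dim members, At4g28240, PHI-1 and the genes beside At4g10270 are named outside that rule, with their values seen.

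Alternatives were each array left out, array weights, a replicate block, no trend, a pseudocount of 32, quantile or median scaling, and other signal filters (none, a mean log2 of 7, or a log2 of 6 on every array). Counting PHI-1 was added after the data were seen.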

Additional observations from a re-analysis of the deposited data

How the results depend on the processing

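No member other than At4g10270 passed an adjusted p under 0.05 from limma in either direction under any alternative. Few probe sets of the whole table passed, so that this says little about the members. The median of the members was 0.07 to 0.17 under settings with all arrays, and 0.03 to 0.26 with 1 array left out. Arrays of the genotypes did not overlap, higher in frb1-1, for 1 member under quantile normalization or median scaling (5.81% and 5.25% of all tested probe sets), and for 2 to 4 with 1 array left out (8.88% to 12.3%). The lower count was 0 under median scaling (5.15%), 3 with no filter (5.02%), and 1 to 3 with 1 array left out (7.79% to 13.6%). At an unadjusted p under 0.05 there were 5 members with array weights (7.50% of all tested probe sets). Signs of small differences were not stable. At1g74940 had -0.013 under quantile normalization and -0.005 under median scaling, and -0.14 to 0.13 with 1 array left out. In the same way At4g27450 ran from -0.24 to 0.018, At3g03270 from -0.16 to 0.10 and PDC2 from -0.035 to 0.58. At4g39675 ran from 0.50 to 1.39, At2g36220 from 0.26 to 0.98 (0.90 with array weights, above At4g39675 at 0.85) and At3g23170 from 0.29 to 0.73. At5g66985 ran from -1.03 to -0.58 and At1g19530 from 0.46 to 0.66, and neither changed sign under any alternative. At4g10270 ran from -2.64 to -2.15, and was not tested with a minimum on every array. The cause of these shifts was not tested. Every member had 1 probe set of its own, so that the rules for several probe sets and for shared ones could not change a value.

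Over all tested probe sets, 42 were higher and 14 lower. With the replicate block these were 107 and 31, with array weights 98 and 24, and without the trend 19 and 9. Lower probe sets numbered 9 when the mean log2 had to reach 7 and 6 when every array had to reach the minimum. With 1 array left out, 11 to 66 were higher and 5 to 16 lower. Deviations of arrays with the same replicate number correlated by 0.04, 0.28 and 0.32 for replicates 1 to 3. For frb1-1 replicates 2 and 3 this was the highest value. Wild-type replicate 3 with frb1-1 replicate 2 gave -0.31, and wild-type replicate 2 with frb1-1 replicate 3 gave -0.30. Replicate 1 of frb1-1 correlated best with wild-type replicate 2 (0.11). The labels state no pairing, so that the main fit did not take the numbers as pairs. Whether arrays of the same number share an effect was not tested.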
